A study of Mus musculus with 16 samples.

Results

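The genes described here code for secreted proteins of the fibrocytes of the cochlea and of the tectorial membrane, together with 1 transcription factor of the same connective tissue: Coch, Otos, Otor, Pou3f4, Tecta, Tectb, Otoa, Otog and Emilin2. They were taken as all probes of the array whose only gene symbol in the probe annotation was one of these names, which gave 10 probes for 9 genes, of 18193 genes with such a probe. Pou3f4 had 2 probes and each of the others had 1. All arrays were hybridised with RNA from the entire left cochlea of a male DBA/2J mouse, an inbred strain that loses its hearing early in life. The M+V group held 6 mice, 12 weeks old, that had been injected under the skin every day for 8 weeks with L-methionine, at 500 mg/kg, together with valproic acid, at 300 mg/kg. The control group held 5 mice of the same age that had received the vehicle, 0.1 M sodium bicarbonate, over the same 8 weeks. The 4 weeks group held 5 mice of 4 weeks of age that were not injected, so that age and injection cannot be told apart in any comparison with it.

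Fibrocytes of the spiral ligament and the spiral limbus line the lateral and the medial side of the cochlear duct and take part in the recycling of potassium from the hair cells back to the endolymph. The tectorial membrane is an acellular sheet over the hair cells, built of collagen fibrils set in a matrix of the tectorins and other glycoproteins, and it is laid down mostly before the onset of hearing. Loss of cochlin, of otospiralin, of the tectorins, of otoancorin, of otogelin or of Pou3f4 is known to impair hearing in mice or in humans.

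The value of a probe is its log2 signal after the authors' quantile normalization, which gave every array the same set of values. A probe was tested if it reached the median of its array in every array of at least 1 group, and 8 of the 9 genes did so. Tecta did not, and its results come from a fit without this filter. Markers of the tissue passed the same filter: 5 of 10 for hair cells, 7 of 8 for supporting cells and 9 of 10 for the stria vascularis. The bioB hybridisation controls parted the arrays into a high batch (9.02 to 9.74 on the log2 scale), which held all 5 arrays of the 4 weeks group, control replicate 1 and M+V replicates 1 and 2, and a low batch (5.98 to 6.36) with the other 4 control and 4 M+V arrays. The sample labels give no batch or date, so batch here means only this split of the bioB levels. Comparisons with 4 weeks thus differ in bioB level as well as in age and injection. M+V replicate 1 stood apart from the rest. Its erythroid marker list, the mean deviation of 3 tested genes from their own means, was at -6.95, against -0.41 to 0.89 in the other 15 arrays, its cartilage list (7 genes) was at -1.23 against -0.30 to 0.51, and its list of fibrocyte genes (19 genes) was at -0.44 against -0.12 to 0.19. Values of Otos and Otor that rest on this array are given with and without it.

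None of the 8 tested genes passed an adjusted p of 0.05 in any of the 3 comparisons. With M+V against control 0 of 8 passed, where 0.00% of all 21391 tested probes did (0 probes, and 9.80% at an unadjusted p under 0.05). With M+V against 4 weeks 0 of 8 passed beside 5.28% of all probes, and with control against 4 weeks 0 of 8 passed beside 1.38%. The clearest separation lay between control and 4 weeks: the levels of Coch, Otos and Otor did not overlap, and all 3 were lower in every control array than in any array of the 4 weeks group, where 3.65% of all tested probes were separated in that direction and 1.96% in the other. No member was separated between M+V and control, where 0.524% of all probes were separated with M+V higher and 0.575% with M+V lower. Between M+V and 4 weeks no member was separated either, beside 1.99% of all probes higher and 2.76% lower in M+V. In RNA of whole cochleae, fewer cells of a type and less RNA per cell cannot be told apart.

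**Figure D1:**
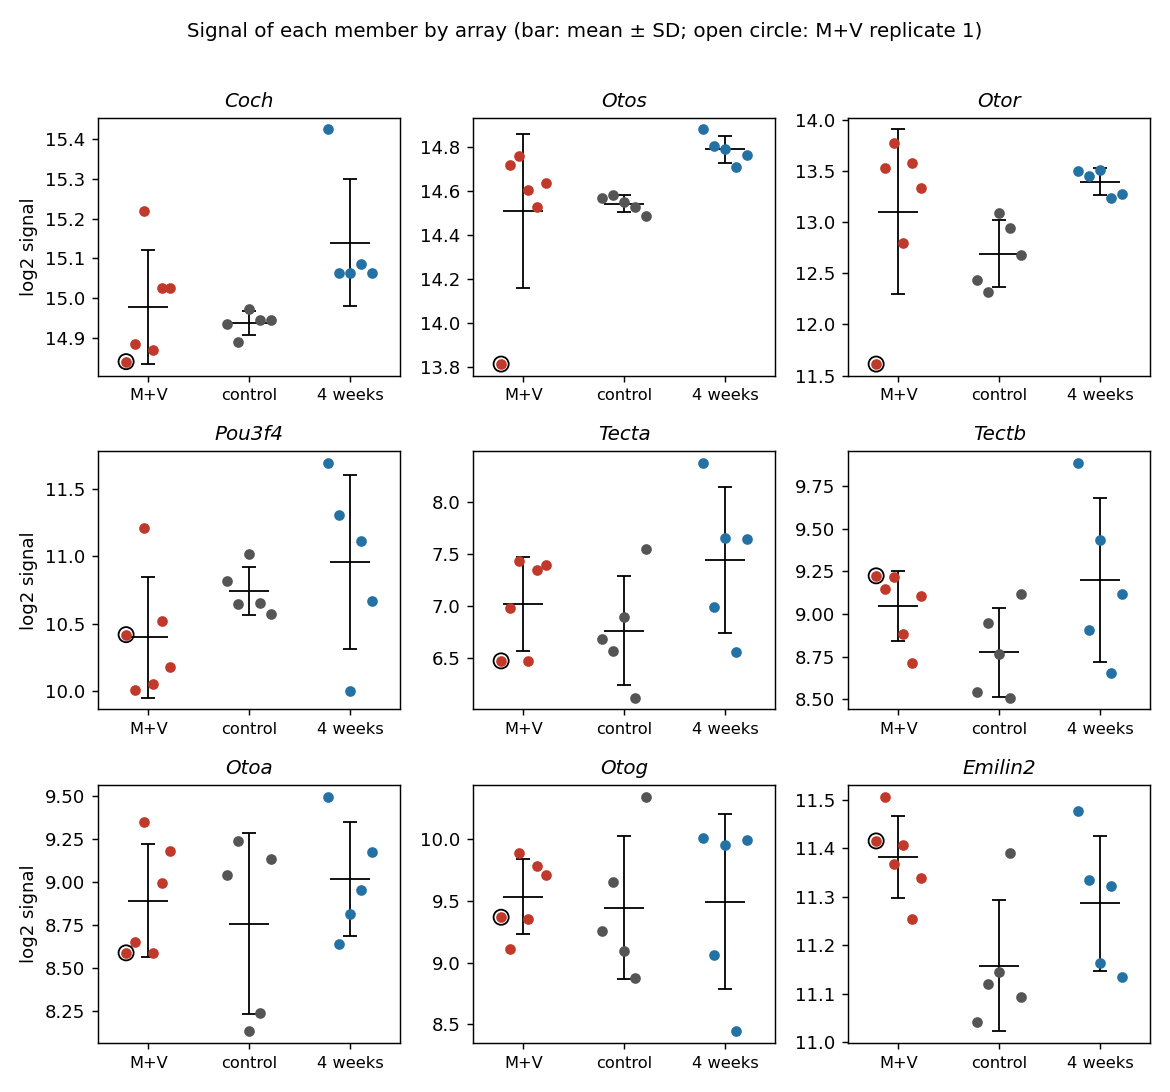
Log2 signal of the 9 genes (y axes, a scale of its own for each gene) in each array of the M+V, control and 4 weeks groups (x axes), with the mean and SD of each group as bars and M+V replicate 1 ringed. Coch, Otos and Otor were lower in all 5 control arrays than in all 5 arrays of the 4 weeks group, and the ringed array held the lowest Otos and Otor signals.

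Coch, Otos and Otor are described first. Coch codes for cochlin, a protein with LCCL and von Willebrand factor A domains that fibrocytes secrete in large amounts and that is mutated in a dominant human deafness. Otos codes for otospiralin, a small protein secreted by fibrocytes of the ligament and limbus, and Otor codes for otoraplin, a secreted protein of the MIA family with an SH3 domain that was also named fibrocyte-derived protein. The 120 bases before the start of each of these genes are shown because they are the 3 members whose levels did not overlap between control and 4 weeks. They come from RefSeq (build GRCm38.p6), run 5′ to 3′ on the strand of the gene, and lie at chr12:51593221-51593340 (+ strand) for Coch, chr1:92648842-92648961 (- strand) for Otos and chr2:143078273-143078392 (+ strand) for Otor. Capitals mark a match to one of the searched motifs.
Coch: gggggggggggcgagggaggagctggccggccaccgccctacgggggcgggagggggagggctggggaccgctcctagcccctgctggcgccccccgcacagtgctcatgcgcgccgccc
Otos: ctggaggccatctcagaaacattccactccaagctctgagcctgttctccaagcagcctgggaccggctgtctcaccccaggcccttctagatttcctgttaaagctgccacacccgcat
Otor: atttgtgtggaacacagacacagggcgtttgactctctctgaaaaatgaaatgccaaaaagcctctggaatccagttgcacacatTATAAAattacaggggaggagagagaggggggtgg

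The motifs searched on both strands of the 250 bases before each start were the TATA box (TATAAA), the CCAAT box (CCAAT) and the octamer to which POU proteins bind (ATGCAAAT), none of which overlapped another in the members. All 9 genes had at least 1 promoter in the table, 11 in all, because Tecta and Emilin2 had 2 each. A TATA box was found in 1 of the 11, that of Otor, beginning 35 bases before the start, where 12.4% of all 32851 promoters held one in this window. The CCAAT box was found in 3 of the 11, those of Pou3f4, Otoa and Otog, beside 33.8% of all promoters. The octamer was found in 0 of the 11, beside 1.6% of all promoters. A match is a description of these letters and shows neither a site nor its use.

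Coch lay close to the top of the range of the array. Its log2 signal was between 14.84 and 15.22 in the 6 M+V arrays (median 14.96), it was 14.94, 14.89, 14.97, 14.95 and 14.95 in the control arrays, and it was 15.42, 15.06, 15.06, 15.09 and 15.06 in the 4 weeks arrays. The 15.42 of 4 weeks replicate 1 was the highest value that the table holds, and quantile normalization sets values at this end by rank, so differences of Coch there are read with that limit. The control arrays lay close to each other and below every array of the 4 weeks group, whereas the M+V arrays spanned both groups. Coch was lower in control by 0.20 on the log2 scale than at 4 weeks (difference -0.20, SE 0.092, limma, unadjusted p = 0.0427, adjusted p = 0.340), and the exact permutation test gave p = 0.00794, the smallest that 5 against 5 arrays allow. Without 4 weeks replicate 1 the difference was -0.13, and the groups were still separated. For M+V the difference was 0.04 (SE 0.088) against control and -0.16 (SE 0.088) against 4 weeks, both with overlap.

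Otos showed the same order of control and 4 weeks with little spread inside either group. The M+V arrays ran from 13.82 through a median of 14.62 to 14.76. The control arrays had 14.57, 14.58, 14.55, 14.52 and 14.48, and the 4 weeks arrays had 14.88, 14.80, 14.79, 14.71 and 14.76. All control arrays lay below all arrays of the 4 weeks group, and 5 of the 6 M+V arrays lay between 14.52 and 14.76, in and above the control range. The difference of control from 4 weeks was -0.25 (SE 0.137, limma adjusted p = 0.450, exact permutation p = 0.00794). The SE is that of the model over all 3 groups, which carries the spread of M+V replicate 1. With the methods' t-test, which uses only the spread of the groups compared, the adjusted p of Otos was 0.0331. In the M+V mice Otos differed by -0.03 from control (95% interval -0.31 to 0.24) and by -0.28 from 4 weeks (unadjusted p = 0.0487, adjusted p = 0.223, limma). The lowest array was M+V replicate 1 with 13.82. Without it Otos was 0.11 higher in M+V than in control (exact permutation p = 0.0476). It was then 0.14 lower than at 4 weeks (difference -0.14, exact permutation p = 0.0317). This array was singled out after its values were seen. With any other array left out, the exact permutation p for M+V against control was 0.968 or higher.

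Otor had the largest difference between control and 4 weeks among the 8 tested genes. Its signal was 11.61 at the lowest, 13.43 at the median and 13.77 at the highest of the 6 M+V arrays. In the control arrays it was 12.43, 12.31, 13.09, 12.94 and 12.68, and in the 4 weeks arrays it was 13.50, 13.45, 13.51, 13.23 and 13.27. The control arrays lay below all arrays of the 4 weeks group, and the M+V arrays other than replicate 1 ran from 12.79 to 13.77, across the upper part of the control range and the whole of the 4 weeks range. Control differed from 4 weeks by -0.70 (SE 0.305, a fold of 0.615 with a 95% interval of 0.393 to 0.961, limma, unadjusted p = 0.0346, adjusted p = 0.314, exact permutation p = 0.00794). With only these 2 groups in the fit the adjusted p was 0.0229, and without M+V replicate 1 it was 0.0424. Within the high batch the only control array had 12.43 against a mean of 13.39 in the 5 arrays of the 4 weeks group, a difference of -0.96, which a single array cannot test. With the batch as a block in the fit over all arrays, control differed from 4 weeks by -1.20 for Otor (limma adjusted p = 0.149). For Otos the blocked difference was -0.42 (limma adjusted p = 0.285), and M+V differed from 4 weeks by -0.70 for Otor (limma adjusted p = 0.202). These differences were larger than those without the block. The block is estimated from the M+V and control arrays, where M+V replicate 1, with the lowest Otor and Otos, is in the high batch. A blocked fit without this array was not run.

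The comparison of M+V with control for Otor turned on 1 array. Over all 6 M+V arrays Otor was at 13.10 ± 0.80 (SD, n = 6) in M+V and at 12.69 ± 0.33 (SD, n = 5) in control, a difference of 0.41 (SE 0.292, limma adjusted p = 0.668, exact permutation p = 0.310). Without M+V replicate 1 the mean was 13.40 in M+V and 12.69 in control, a difference of 0.71 (exact permutation p = 0.0238, limma adjusted p = 0.303 over all probes), and the difference from 4 weeks was then 0.01. In the low batch, which does not hold that array, the mean was 13.37 in 4 M+V arrays and 12.76 in 4 control arrays (difference 0.61, exact permutation p = 0.0857, where 0.0286 is the smallest possible). With any array other than M+V replicate 1 left out, the exact permutation p for M+V against control was 0.262 or higher. In M+V replicate 1 the fibrocyte, cartilage and erythroid lists were low together with Otor and Otos, and their part in these values was not tested.

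Pou3f4 codes for a POU-domain transcription factor of the otic mesenchyme, from which the fibrocytes arise, and its loss causes an X-linked deafness. Its probe with the higher mean read 10.01 at the lowest, 10.30 at the median and 11.21 at the highest M+V array, 10.82, 10.65, 11.02, 10.65 and 10.57 in the control arrays, and 11.69, 11.31, 10.003, 11.11 and 10.67 in the 4 weeks arrays. The groups overlapped in all comparisons, and the lowest and the highest of the 16 values were both from 4 weeks arrays. The difference of M+V from 4 weeks was -0.56 (SE 0.255, limma, unadjusted p = 0.0430, adjusted p = 0.210) and its exact permutation p was 0.119.

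The second Pou3f4 probe, designed on the same transcript, did not give the same order. It read 10.07, 10.50 and 10.84 as the lowest, median and highest M+V array, 10.21, 10.11, 10.39, 10.22 and 10.01 in the control arrays, and 10.77, 10.52, 10.15, 10.36 and 10.33 in the 4 weeks arrays. M+V against control was -0.34 (SE 0.255) with the first probe and 0.28 (SE 0.131, limma, unadjusted p = 0.0476, adjusted p = 0.508, exact permutation p = 0.0584) with the second, and M+V against 4 weeks was -0.56 and 0.04. Only control against 4 weeks had the same sign in both, -0.21 and -0.24. The deviations of the 2 probes from their group means nevertheless ran together over the 16 arrays (r = 0.826), so no direction is given for Pou3f4 in M+V mice.

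Emilin2 codes for a member of the EMILIN family of elastic fibre glycoproteins and is found in the basilar membrane. Its signal was 11.26, 11.39 and 11.51 as the lowest, median and highest of the M+V arrays. The control arrays had 11.04, 11.12, 11.14, 11.39 and 11.09, and the 4 weeks arrays had 11.48, 11.34, 11.16, 11.32 and 11.13. The M+V arrays all lay above 4 of the 5 control arrays, and control replicate 4, with 11.39, lay inside the M+V range. Emilin2 had the lowest p of the members in M+V against control, with a difference of 0.22 (SE 0.085, a fold of 1.17 with a 95% interval of 1.03 to 1.32, limma, unadjusted p = 0.0178), and it did not pass after adjustment over all probes (adjusted p = 0.458). With 1 probe a gene it was the only 1 of the 8 at an unadjusted p under 0.05, where 9.80% of all probes were, and the second Pou3f4 probe was also under 0.05. The exact permutation test over the 11 arrays gave p = 0.0173, and leaving out any 1 array gave differences between 0.20 and 0.28. Within the low batch the difference was 0.16 (4 against 4 arrays, exact permutation p = 0.114).

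**Figure D2:**
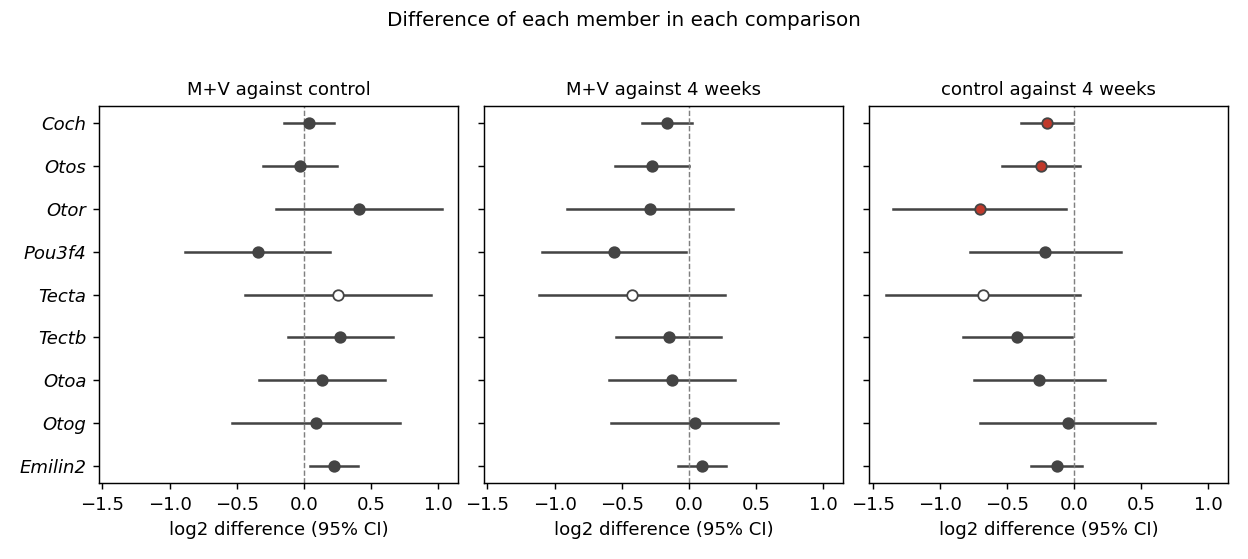
Log2 difference of each gene (points, with 95% intervals from the limma fit on the x axes) in the M+V comparisons (left with control, middle with 4 weeks) and in the comparison of control with 4 weeks (right). Tecta, open, is from the fit without the filter, and red points are genes whose groups did not overlap. Control against 4 weeks lay below 0 for all 9 genes, from -0.05 for Otog to -0.70 for Otor.

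Taking the 9 genes side by side, control was below 4 weeks in 9 of 9, with a median of -0.25, and in 8 of 8 tested genes, with a median of -0.23 where the median over all tested probes was -0.001 and 50.2% of them were below 0. Coch, Otor and Tectb had an unadjusted p under 0.05, which is 3 of 8 beside 13.8% of all probes. M+V was below 4 weeks in 7 of 9, with a median of -0.16 over the tested genes and 0.004 over all probes, and Otos and Pou3f4 had an unadjusted p under 0.05, which is 2 of 8 beside 22.2% of all probes. M+V was above control in 7 of 9 genes, with a median of 0.11 over the tested genes and 0.01 over all probes. With the second Pou3f4 probe in place of the first, control was below 4 weeks in 9 of 9, M+V was below 4 weeks in 6 of 9 and above control in 8 of 9, and 1 and 2 of the 8 tested genes had an unadjusted p under 0.05 in these M+V comparisons. The 3 comparisons share their groups in pairs, and the genes of 1 cochlea are not independent of each other, so these counts describe the arrays and were not tested. All 9 signs of control against 4 weeks were kept under cyclic loess, median centring and log2(signal + 32). Cyclic loess and median centring change little in values already quantile-normalized, so signs kept there say little. With array weights and within the high batch, which holds 1 control array, 8 of 9 were below 0. The count was also 8 of 9 without 4 weeks replicate 1, 3 or 5 or control replicate 3 or 4, each left out alone.

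The groups overlapped in every comparison for the 4 glycoproteins of the tectorial membrane. Tecta and Tectb code for alpha- and beta-tectorin, proteins with zona pellucida domains that form the striated matrix between the collagen fibrils. Tecta read 6.47 at the lowest, 7.16 at the median and 7.44 at the highest M+V array, 6.69, 6.57, 6.90, 6.12 and 7.54 in the control arrays and 8.37, 6.99, 7.65, 6.56 and 7.64 in the 4 weeks arrays. These values lay around the median of the arrays, 6.90, and the difference of control from 4 weeks, -0.68 (SE 0.339, 95% interval -1.40 to 0.05), did not pass in the fit without the filter (limma adjusted p = 0.570). Tectb read 8.71, 9.13 and 9.22 as the lowest, median and highest M+V array, 8.54, 8.95, 8.77, 8.51 and 9.12 in the control arrays, and 9.89, 8.91, 9.43, 8.65 and 9.12 in the 4 weeks arrays. Its control arrays were lower than 4 weeks by a difference of -0.42 (SE 0.193, limma, unadjusted p = 0.0425, adjusted p = 0.340, exact permutation p = 0.119), and M+V differed from control by 0.27 (SE 0.184, exact permutation p = 0.0974).

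Otoa codes for otoancorin, a relative of mesothelin that attaches the tectorial membrane to the spiral limbus, and Otog codes for otogelin, a mucin-like protein of the acellular membranes of the inner ear. Otoa read 8.59, 8.83 and 9.35 as the lowest, median and highest M+V array, 9.04, 9.24, 8.14, 8.24 and 9.13 in the control arrays, and 9.49, 8.64, 8.82, 8.95 and 9.17 in the 4 weeks arrays. The control arrays held 3 values from 9.04 to 9.24 and 2 of 8.14 and 8.24, and both other groups overlapped the upper 3. Otog read 9.11, 9.54 and 9.88 as the lowest, median and highest M+V array, 9.26, 9.65, 9.09, 8.88 and 10.34 in the control arrays, and 10.003, 9.06, 9.95, 8.45 and 9.99 in the 4 weeks arrays. The means of Otog were 9.53 ± 0.30 in M+V (SD, n = 6), 9.44 ± 0.58 in control and 9.49 ± 0.71 at 4 weeks (SD, n = 5 each), closer to each other than the SD of any group. Otog differed by 0.09 between M+V and control (a fold of 1.06, 95% interval 0.692 to 1.64) and by -0.05 between control and 4 weeks (a fold of 0.968, 95% interval 0.617 to 1.52), and differences inside these intervals were not excluded by these arrays.

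Further matrix genes were followed in a list of 16, drawn up as partners of these glycoproteins, of which 13 were on the array and 7, all of them collagen genes, were tested. Collagens of types II, IX and XI form the fibrils of the tectorial membrane and also those of cartilage. Col4a4, 1 of the 7, is of none of these types, and its differences from 4 weeks (-0.42 in M+V, -0.515 in control) did not pass. With M+V against 4 weeks 4 of 7 were lower past the test and 0 were higher, with a median of -0.68 beside 0.004 over all probes. Col2a1, the chain of type II collagen, averaged 9.45 ± 1.11 in M+V (SD, n = 6) and 12.01 ± 0.15 at 4 weeks (SD, n = 5), a difference of -2.56 (SE 0.393, limma adjusted p = 0.00178). Its lowest M+V array had 7.44, and the median of the M+V arrays was 9.91. Col11a1, a chain of type XI collagen, averaged 10.52 ± 0.45 in M+V and 12.29 ± 0.24 at 4 weeks (difference -1.77, SE 0.229, limma adjusted p = 0.000486). Col11a2 (difference -0.91, limma adjusted p = 0.00765) and Col9a1 (difference -0.68, limma adjusted p = 0.0164) were the other 2. On the score of the 7 tested genes (their mean deviation from their own means), M+V replicate 1 was at -1.05. The other M+V arrays ran from -0.42 to 0.004, and the 4 weeks arrays from 0.54 to 1.02.

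Control mice had lower levels of the same 4 collagen genes than mice of 4 weeks, and again 0 of 7 were higher, with a median of -0.84. Col2a1 averaged 9.70 ± 0.39 in control and 12.01 ± 0.15 at 4 weeks (SD, n = 5 each, difference -2.31, SE 0.410, limma adjusted p = 0.00840), and Col11a1 averaged 10.44 ± 0.49 in control and 12.29 ± 0.24 at 4 weeks (difference -1.85, SE 0.239, limma adjusted p = 0.000770). Col11a2 differed by -0.95 (adjusted p = 0.0150) and Col9a1 by -0.84 (adjusted p = 0.0127) in the same limma fit. With M+V against control 0 of 7 passed in either direction, and the median was 0.10. Both comparisons with 4 weeks share the 4 weeks arrays. With the bioB batch as a block the medians were further from 0, at -1.15 in M+V with 5 of 7 lower past the test and at -1.33 in control with 3 of 7, where Col9a1 no longer passed (-0.90, limma adjusted p = 0.0607). M+V replicate 1 is among the high arrays of that block, and a blocked fit without it was not run. In the fit without the filter, Col9a1 no longer passed in M+V (limma adjusted p = 0.0686), and Col9a1 and Col11a2 no longer passed in control (limma adjusted p = 0.0670 and 0.0751). The 4 tectorial glycoproteins stand beside these collagens with differences of -0.68 to -0.05 in control against 4 weeks, none past the test, and a difference between the 2 kinds of genes was not tested.

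Markers of bone and of cartilage also passed in the comparisons with 4 weeks, where 5.28% of all tested probes did with M+V and 1.38% with control. Of 10 tested bone markers 8 were lower past the test in M+V and 6 in control than at 4 weeks (8 and 3 in the fit without the filter), and 0 were higher. Of 7 tested cartilage markers 2, Col2a1 and Chad, a leucine-rich protein of cartilage, were lower past the test in each comparison (1 and 1 of 10 without the filter, 4 and 1 of 7 with the bioB batch as a block), and 0 were higher. Col2a1 is also among the collagens above. Of the 7 markers, 5 were below 0 in M+V and 6 in control. Comp went the other way, by 0.65 in M+V and 1.405 in control against 4 weeks (limma adjusted p = 0.279 and 0.0632). The score of the bone list (the mean deviation of its genes from their own means) ran from -0.91 to -0.02 in M+V, from -0.53 to -0.01 in control and from 0.64 to 0.80 at 4 weeks. That of the cartilage list ran from -1.23 to 0.22 in M+V, from -0.28 to -0.03 in control and from 0.22 to 0.51 at 4 weeks. Their part in the collagen values was not tested.

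**Figure D3:**
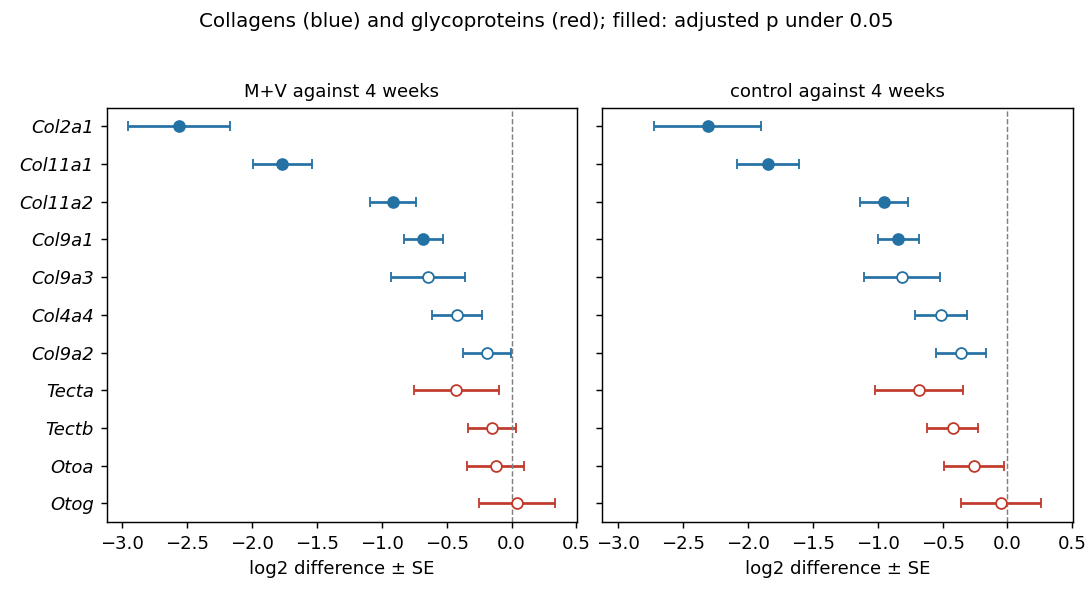
Log2 difference with its SE (x axes) of the 7 tested collagen genes (blue) and of the 4 tectorial glycoprotein genes (red) in M+V against 4 weeks (left) and in control against the same group (right); filled points passed an adjusted p of 0.05. The same 4 collagen genes passed in both panels, Col2a1 at -2.56 in M+V and -2.31 in control, and 0 of the 4 glycoprotein genes did.

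Further genes of the fibrocytes and the otic mesenchyme passed only against 4 weeks, where 5.28% of all tested probes passed with M+V and 1.38% with control. In these lists 0 genes were higher past the test. Of 19 tested genes of spiral ligament and limbus fibrocytes, 0 passed with M+V against control (median 0.01), 3 were lower with M+V against 4 weeks (Lum -1.29, Postn -0.98 and Dcn -0.58, small proteoglycans and a matricellular protein, limma adjusted p = 0.000530, 0.00906 and 0.0341), and 1 was lower with control against 4 weeks (Lum -1.03, limma adjusted p = 0.00793). Lum and Dcn also stand in the list of connective tissue fibroblast markers, of which 5 of 7 were lower in M+V and 4 of 7 in control than at 4 weeks (3 and 2 of 7 without the filter). The median over the 19 genes was -0.12 with M+V and -0.13 with control against 4 weeks, and -0.23 and -0.34 with the bioB batch as a block, in which all 4 weeks arrays are high and 4 of 5 control arrays low. M+V replicate 1, the lowest array on the score of these genes, is also high in the block. Under this block Lum did not pass in control (-1.07, limma adjusted p = 0.0554), whereas Dcn did (-0.77, limma adjusted p = 0.0415). Without the filter Dcn did not pass in M+V (limma adjusted p = 0.113). Among 9 tested transcription factors of the otic mesenchyme and of deafness, Prrx1 and Twist1, both mesenchymal regulators, were lower than at 4 weeks in M+V (differences of -0.77 and -0.38, limma adjusted p = 0.000568 and 0.0322) and in control (-0.68 and -0.63, limma adjusted p = 0.00364 and 0.00514), and 0 of 9 passed with M+V against control. Of 10 tested relatives of the members by protein domain, Crispld1, which has LCCL domains like cochlin, was lower in M+V than at 4 weeks (-0.61, limma adjusted p = 0.0152), Emilin3 was lower in control than at 4 weeks (-0.55, limma adjusted p = 0.0305), and 0 of 10 passed with M+V against control. With the batch as a block, Twist1 did not pass in M+V or control (limma adjusted p = 0.160 and 0.0892), nor did Emilin3 in control (limma adjusted p = 0.256), while Prrx1 passed in both. Without the filter, Twist1 and Crispld1 did not pass in M+V (limma adjusted p = 0.108 and 0.0648), nor did Emilin3 in control (limma adjusted p = 0.126).

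The members also varied from mouse to mouse inside each group, and this variation was compared after the group means had been removed. Of the 36 pairs among the 9 genes, 31 had a positive Pearson correlation over the 16 arrays and 7 passed an adjusted p of 0.05 (Benjamini-Hochberg over the 36 pairs, permutation tests with 100000 resamples), but only 1 passed by Spearman correlation. That pair was Tecta and Otog, with r = 0.841 (permutation p = 4e-05, adjusted p = 0.00144) and rho = 0.818 (permutation p = 0.0002, adjusted p = 0.0072). Without the 2 arrays farthest from the median of Tecta r was 0.786, and it was 0.815 in the 8 arrays of the low batch and 0.844 in the 8 of the high batch. Arrays with a high Tecta signal tended to have a high Otog signal, with 4 weeks replicate 4 at the low end of its group for both genes and control replicate 5 at the high end.

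Otog also ran with Tectb (r = 0.694, adjusted p = 0.0205, rho = 0.682, adjusted p = 0.0523, permutation tests) and with Otoa (r = 0.640, adjusted p = 0.0398, rho = 0.688, adjusted p = 0.0523, permutation tests). Leaving out the 2 farthest arrays gave r = 0.552 for Tectb and 0.578 for Otoa. Of the 108 relations between the 9 genes and 12 lists of tissue genes, 12 passed an adjusted p of 0.05 by Pearson correlation and 0 by Spearman correlation. Tectb with hair cells (r = 0.656), Coch with the stria vascularis (r = 0.704) and Otos with macrophages (r = -0.770) were among the 12. Without the 2 arrays farthest from the median of the member, r was 0.594, 0.387 and -0.233 in the same order. The hair cell list (5 tested genes) followed Otog with r = 0.706 (adjusted p = 0.0302 over the 108 relations, permutation test) and rho = 0.791 (adjusted p = 0.0529), r = 0.571 without the 2 farthest arrays, 0.915 in the low batch and 0.780 in the high batch. The amount of sensory epithelium in each dissection is not measured by the files, and its part in these relations was not tested.

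The highest correlation, that of Otos and Otor (r = 0.848, adjusted p = 0.0197, permutation test), rested on M+V replicate 1. Its rho was 0.409 (adjusted p = 0.323), r was 0.275 without the 2 arrays farthest from the median of Otos, 0.255 without M+V replicate 1 alone, 0.189 in the low batch and 0.994 in the high batch, which holds that array. The same held for the fibrocyte list, with which Otos had r = 0.925 and Otor r = 0.894 over all 16 arrays, and 0.484 and 0.568 without M+V replicate 1. Coch and Pou3f4 (r = 0.713, adjusted p = 0.0197, permutation test) had r = 0.303 without the 2 farthest arrays and 0.760 without M+V replicate 1. Tecta with Tectb (r = 0.706) and Coch with Tecta (r = 0.658) were the other 2 pairs past the test, with r = 0.455 and r = 0.500 without the 2 farthest arrays.

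**Figure D4:**
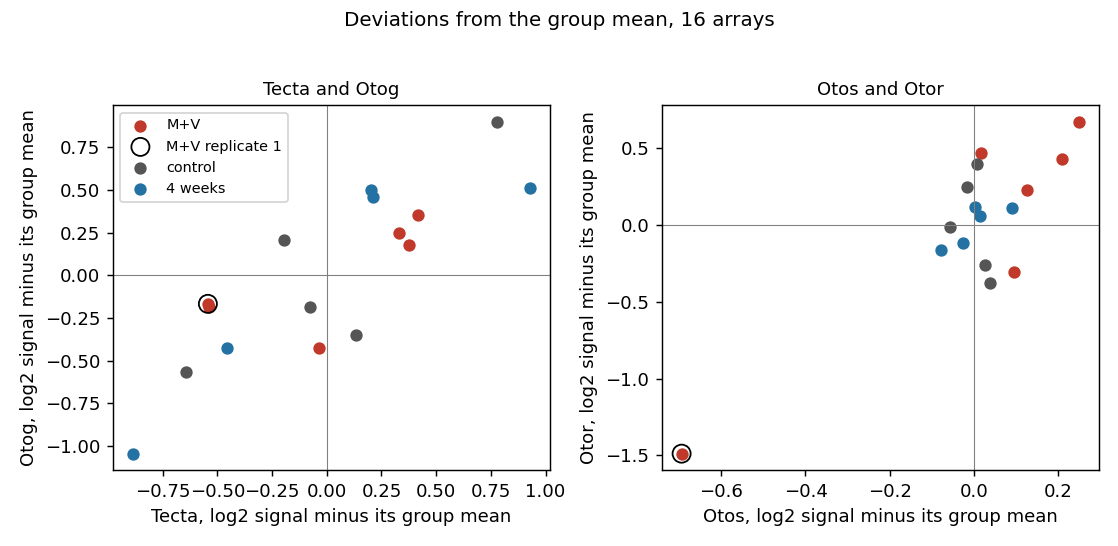
Deviation of the log2 signal from the group mean in the 16 arrays, for Tecta (x axis) and Otog (y axis) on the left and for Otos (x axis) and Otor (y axis) on the right, with M+V replicate 1 ringed. The Tecta and Otog points follow 1 line (r = 0.841), whereas the relation of Otos and Otor, r = 0.848, falls to 0.255 without the ringed array.

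The genes whose signal was most like that of a member were sought among the 11457 tested genes, by the Pearson correlation over all 16 arrays, as a description. Nearest to Otog were Ush1c (r = 0.877), which codes for harmonin of the hair bundle, Otof (r = 0.860), which codes for otoferlin of the hair cell synapse, and Ciapin1 (r = 0.835). After the group means were removed these correlations were 0.877, 0.881 and 0.841. Otor was nearest to Cemip (r = 0.941), a protein of hyaluronan breakdown, to Moxd1 (r = 0.914), a monooxygenase-like protein, and to Col9a3 (r = 0.884), a chain of type IX collagen. Coch was nearest to Slco1c1 (r = 0.919), an organic anion transporter, to Pcolce2 (r = 0.914), an enhancer of procollagen processing, and to P3h4 (r = 0.910), a protein of collagen modification. The nearest genes of Otos (Narf, Josd2 and Fcrls, r between 0.930 and 0.934), Pou3f4 (Evi5, Cldnd1 and Vgll4, r between 0.868 and 0.881), Tectb (2700081O15Rik, Nlk and Dctn2, r between 0.797 and 0.858), Otoa (Arpc1a, Higd1a and Ndufa1, r between 0.772 and 0.80) and Emilin2 (Ptger3, Prrg2 and Pgm2, r between 0.795 and 0.883) are named without a role. Tecta, which missed the filter, was not included. Without M+V replicate 1 the correlations of Otos with its 3 genes were 0.685 to 0.742, those of Otor were 0.889 with Cemip, 0.836 with Moxd1 and 0.775 with Col9a3, and those of the other 6 genes changed by less than 0.05.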

How the data were processed

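Values were log2 signals as deposited by the authors, who extracted them from Affymetrix mouse genome arrays with GCOS and MAS5 (versions not given in the sources used here) and quantile-normalized them over all arrays. Sorted values were identical in the 16 arrays, which hides differences in total signal between cochleae. Signals under 1 were set to 1 (0.869% of values), and 64 control probes were left out. Probes that reached the array median throughout 1 group or more (21391 probes, 11457 genes) were fitted with limma 3.58.1 in R 4.3.3, with a mean per group over all 16 arrays. All tests were two-sided. P-values were adjusted after Benjamini and Hochberg across these probes, and 0.05 was the threshold. This filter stands in for the authors' present calls, which were not used here. A gene is reported from its probe with the highest mean. Exact permutation tests compared single values, 27 of them over the 9 genes with all arrays of the groups compared. Further ones were run for the second Pou3f4 probe, within each bioB batch and with each array left out in turn. None of these p-values was adjusted. The number of arrays, 5 or 6 a group, limits the precision.

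The fit was tested on simulated data. The members and the gene lists were chosen with earlier results of these data known. The genes named are the 9 members, up to 4 genes with the largest moderated t from each list, and the 3 genes most like each member that passed the filter. Probe names come from the array annotation, and all 9 members matched RefSeq (GRCm38.p6). Each array is 1 mouse. Replicate numbers were not taken as pairs: over 15 pairs of arrays with the same number the median correlation of deviations from the group means was 0.013, and 6 were over 0.1. Over 70 pairs with other numbers the median was -0.019, and 18 were over 0.1. Alternatives covered normalization, filters, the methods' t-test, the samples fitted, array weights, blocks for replicate and bioB batch, a Gapdh 3'/5' covariate and each array left out.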

Additional observations from a re-analysis of the deposited data

Results flagged for a closer look

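Over 30 groups of arrays (10 probes in 3 groups), 2 values lay far from the rest of their group by Dixon's test at the 95% level, a rate at which chance marks about 1 group in 20. Otos was at 13.82 in M+V replicate 1, where the nearest M+V array had 14.52, and the gap took up 0.753 of the range of the group, above the critical value for 6 arrays. Coch was at 15.42 in 4 weeks replicate 1, where the nearest array of that group had 15.09, and the gap took up 0.937 of the range, above the critical value for 5 arrays.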

How the results depend on the processing

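The 0 of 8 members past the test in M+V against control and in M+V against 4 weeks stayed at 0 under every alternative run, the replicate block among them. In control against 4 weeks the count, 0 with all arrays and 0 with the replicate block, was 1 with the methods' t-test on log2 values and on linear signals (Otos both times, adjusted p = 0.0331 and 0.0468) and 1 with only the compared groups in the fit (Otor, adjusted p = 0.0229). Leaving out each array in turn gave 0 to 1, the 1 without M+V replicate 1 (Otor, adjusted p = 0.0424). No value past the test changed its sign. The 913 values under an alternative were differences of single members and, for each alternative, the count of members at an unadjusted p under 0.05. Among them 28 differences had another sign than the value reported, and all were short of the threshold. Of these, 7 were for Otog in M+V against 4 weeks and 6 for Otog in control against 4 weeks. The cause was not tested in any of these cases.

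The 4 collagen genes past the test in M+V against 4 weeks were 1 with the methods' t-test on log2 values and 2 on linear signals, and the 4 in control against 4 weeks were 2 without a filter, 2 with the methods' t-test on log2 values, 2 on linear signals and 0 within the high bioB batch, where control has 1 array and which therefore tests little. The bioB block over all arrays gave 5 in M+V and 3 in control. For the other 3 pathway lists together, the calls against 4 weeks were 3 without a filter in M+V, against 6 with it, and 2 with the bioB batch as a block in control, against 4. Of the 7 correlated pairs of members, 1 passed by Spearman correlation, 1 without the 2 farthest arrays and 1 within the low batch. Leaving out each array in turn, chosen after seeing the data, gave 4 to 9 pairs, the lowest without M+V replicate 1. Signals at the top of the array, those of Coch and Otos, are bounded by the ceiling of the table.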
